A study of Mus musculus with 2 samples.

Results

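The genes described here are 9 metalloproteases and metalloprotease inhibitors listed by name: the inhibitors Timp1, Timp2 and Timp3, the matrix metalloproteases Mmp2 and Mmp14, the membrane protease Adam15, and the secreted proteases Adamts1, Adamts4 and Adamts9. All 9 were present among the 19831 genes of both deposited tables. The cells were CD31+ tumour endothelial cells, taken by fluorescence-activated sorting from C57BL/6 mice labelled as adult, and sequenced as single cells with the 10x Genomics 3′ v3.1 chemistry. One library was labelled NF2 KO, where the targeted gene Nf2 codes for the tumour suppressor merlin, and the other Control (1 per group). How many mice were used, what tumour they bore and which Cre or promoter drove the deletion are not given in the sources used here.

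Matrix metalloproteases cut components of the extracellular matrix, and Mmp14 is anchored in the cell membrane, where it activates the proform of Mmp2 with Timp2 as a bridge between them. The Timp proteins block these proteases, and Timp3, which stays bound to the matrix, also blocks several ADAM and ADAMTS proteases. ADAM proteases sit in the membrane and release the outer parts of other membrane proteins, while ADAMTS proteases are secreted and cut matrix proteoglycans. In endothelium this balance takes part in the breakdown of the basement membrane during vessel sprouting.

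After the filters, 2916 NF2 KO cells with 53795947 UMIs (molecules counted by unique identifiers) and 1687 Control cells with 29799439 UMIs were retained, at medians of 16403.5 and 15388 UMIs per cell. Barcodes of each library carry the run number 1 or 2. What a run was is not stated, so the runs are parts of 1 sample and not replicates. Libraries and runs shared at most 1 cell barcode. The runs differed in depth, and the most shallow was Control run 1, with a median of 10566 UMIs per retained cell, against 21586 in Control run 2. Every one of 16 endothelial markers was detected in both libraries, with summed levels of 7780 CPM in NF2 KO and 10320.9 CPM in Control cells, where CPM is the UMIs of a gene per 1000000 UMIs of the cells summed. Nf2 itself stood at 20.3 CPM (95% interval 19.1 to 21.6) in NF2 KO and 21.9 CPM (20.3 to 23.7) in Control cells. A 3′ tag outside a deleted exon does not read a knockout, so these counts do not check the labels. With 1 library per group no test was possible; each bracket gives an exact 95% interval that covers counting error only, and not the spread between mice.

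Promoter windows were available for 7 of the 9 genes in the RefSeq table (build GRCm38.p6), with none for Mmp2 and Adamts4. The first 3 windows below belong to the genes whose levels went together across cell states, and the fourth belongs to the only gene of the 7 with the letters GGAATG, the core element of TEAD factors, which act downstream of merlin. Each is written 5′ to 3′ on the strand of its gene and ends at the base before the annotated RefSeq start. The windows are 250 bases long at chr16:85803114-85803363 (minus strand) for Adamts1, chr6:92943535-92943784 (minus strand) for Adamts9 and chrX:20869916-20870165 (plus strand) for Timp1, where capitals mark GGAATG. For Adam15 the window is 190 bases at chr3:89350029-89350218 (minus strand), since the 60 bases before it lie in an exon of Dcst1.
Adamts1: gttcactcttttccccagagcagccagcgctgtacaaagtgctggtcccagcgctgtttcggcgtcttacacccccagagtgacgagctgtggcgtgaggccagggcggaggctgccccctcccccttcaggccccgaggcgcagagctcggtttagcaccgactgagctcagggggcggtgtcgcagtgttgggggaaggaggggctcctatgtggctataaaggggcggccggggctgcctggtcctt
Adamts9: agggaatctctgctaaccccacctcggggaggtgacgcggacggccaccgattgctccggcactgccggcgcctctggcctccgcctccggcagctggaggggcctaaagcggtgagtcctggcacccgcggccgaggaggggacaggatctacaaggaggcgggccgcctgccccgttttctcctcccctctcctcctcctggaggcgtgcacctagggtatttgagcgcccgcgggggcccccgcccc
Adam15: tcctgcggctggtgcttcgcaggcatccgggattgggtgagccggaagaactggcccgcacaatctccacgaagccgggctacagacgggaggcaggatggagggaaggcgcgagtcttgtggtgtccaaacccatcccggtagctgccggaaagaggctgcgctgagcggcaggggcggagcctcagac
Timp1: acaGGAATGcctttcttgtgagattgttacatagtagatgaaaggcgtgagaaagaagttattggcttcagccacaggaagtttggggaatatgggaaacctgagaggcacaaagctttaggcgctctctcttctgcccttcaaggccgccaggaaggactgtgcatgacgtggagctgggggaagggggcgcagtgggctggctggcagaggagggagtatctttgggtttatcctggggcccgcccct
The G and C content was 65.6% for Adamts1, 71.2% for Adamts9, 65.8% for Adam15 and 54.4% for Timp1. GGAATG, searched on both strands, was found 247 bases before the start of Timp1 and in 1 of 7 windows, against 12.6% of 27025 promoters of the same length in the table. TGANTCA, the AP-1 element, was in 0 of the 7 windows and in 6.87% of all promoters. A match is a run of letters and not evidence of binding.

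Over all retained cells, the genes differed from each other in the direction of their difference between the libraries. A difference was counted where the NF2 KO over Control ratio of CPM of a gene was at least 1.5 in either direction and its mean over both libraries was at least 20 CPM. Of the 9 genes, 8 were above that floor, and 3 of the 8 were counted: Timp2 was higher, and Timp3 and Adamts1 were lower. Of all 5832 genes above the floor, 8.09% were counted, 2.83% as higher and 5.26% as lower. The median log2 ratio was -0.34 over the 8 genes and -0.03 over the 5832. The ratio was below 1 for 7 of the 8 genes and for 56.3% of all genes. The NF2 KO runs lay below both Control runs for 7 of the 8 genes, as they did for 38.0% of all genes, and they did not overlap the Control runs for 8 of the 8, as for 65.4% of all genes. Fewer cells of a kind and less RNA per cell cannot be told apart in these sums.

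**Figure D1:**
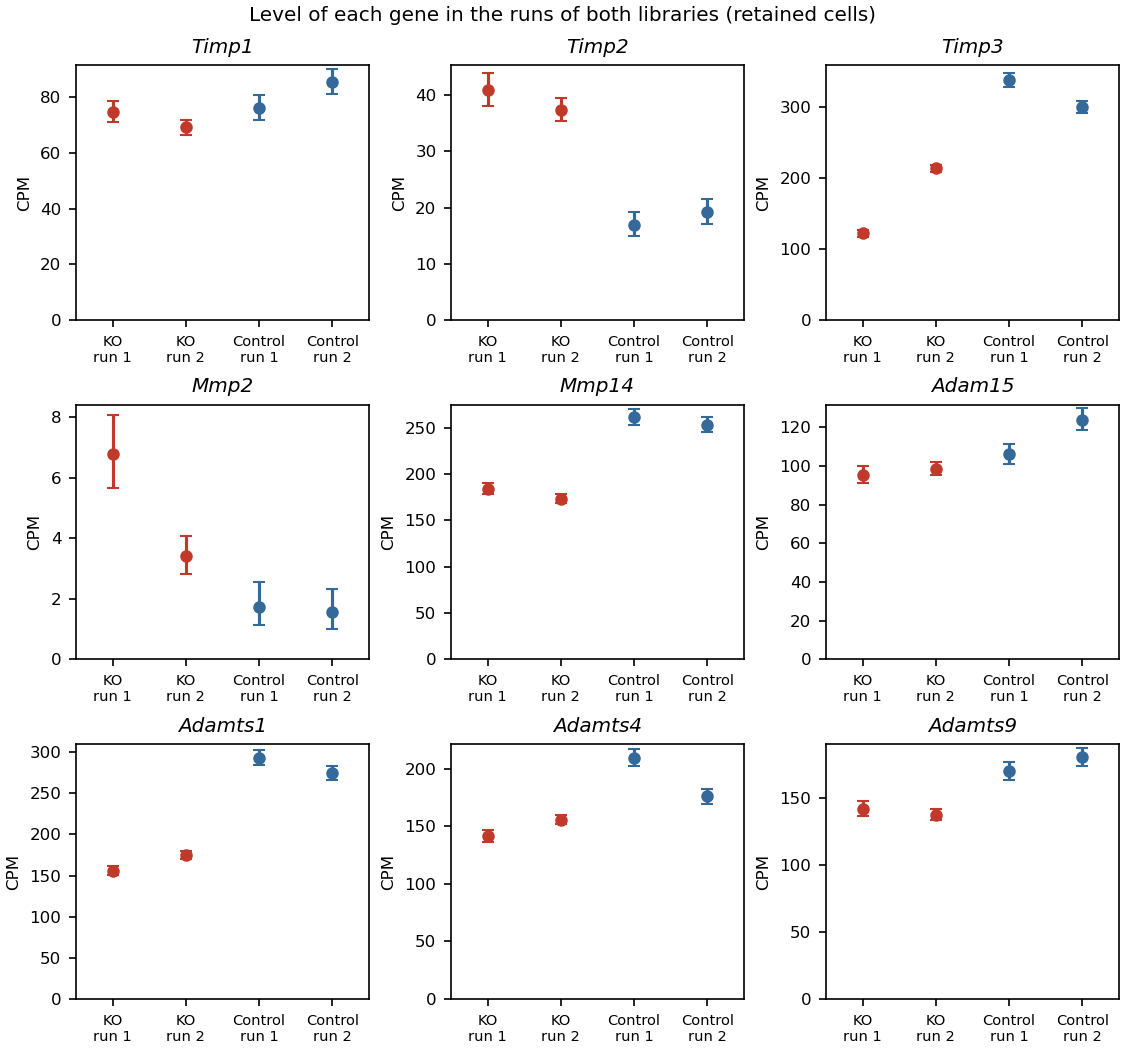
Level of each of the 9 genes in CPM (vertical axes start at 0) in runs 1 and 2 of the NF2 KO library (red) and of the Control library (blue), with bars for the exact 95% Poisson interval. Both NF2 KO runs lie above both Control runs for Timp2 and Mmp2 and below them for the other 7 genes, and the NF2 KO runs of Timp3, at 122 and 214 CPM, are far apart.

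Among the inhibitors, Timp2, which both blocks Mmp2 and helps Mmp14 to activate it, was the only gene above the floor that was higher in the NF2 KO library (ENSMUSG00000017466.9, chromosome 11, 118301069 to 118355740, minus strand of GRCm38). It had 40.9 and 37.4 CPM in NF2 KO runs 1 and 2, against 17.0 and 19.2 CPM in Control runs 1 and 2. The runs of each library lay close together, and the ratio was 2.13 (1.94 to 2.35). With the same cluster weights in both libraries the ratio was 1.30. Without cells holding a UMI of any pericyte, fibroblast or epithelial marker it was 1.48, over the 1440 NF2 KO and 731 Control cells that remained. These lists include Cldn4 and Abcc9, which were among the top genes of 2 endothelial clusters described below. Cldn4 had 30.4 of the 33.6 CPM of the epithelial list in NF2 KO cells. In Control cells Abcc9 had 51.1 of the 67.7 CPM of the pericyte list. This setting can therefore also leave out endothelial cells of those clusters.

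Timp3, the matrix-bound inhibitor with the widest range of target proteases, had the opposite direction (ENSMUSG00000020044.13, chromosome 10, 86300372 to 86349506, plus strand). It had 122 and 214 CPM in NF2 KO runs 1 and 2, against 338 and 300 CPM in Control runs 1 and 2. The library level was 1.76-fold lower in NF2 KO cells (1.71 to 1.81), and the NF2 KO runs differed from each other by nearly as much, 1.75-fold. NF2 KO run 1 was below run 2 in 8 of the 9 states held by that library, and how many of all genes did the same was not computed. Run 1 also had fewer of the cells rich in Timp3: the interferon-like state led by Cxcl9 made up 4.61% of run 1 and 9.57% of run 2, and the capillary-like state led by Cd36 and Lpl made up 5.81% and 12.4%. The part of these shares in the gap between the NF2 KO runs was not tested. Without NF2 KO run 1 the ratio was 0.671, short of the 1.5-fold limit.

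Timp1, a secreted inhibitor of most matrix metalloproteases, differed little (ENSMUSG00000001131.11, chromosome X, 20870166 to 20874735, plus strand). It had 74.9 and 69.2 CPM in NF2 KO runs 1 and 2, against 76.3 and 85.6 CPM in Control runs 1 and 2, a ratio of 0.878 (0.834 to 0.924). The gap between NF2 KO run 1 and Control run 1 was smaller than the gap between the runs of either library.

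Among the matrix metalloproteases, Mmp14, the membrane-anchored collagenase, was lower without passing 1.5 (ENSMUSG00000000957.11, chromosome 14, 54431612 to 54445364, plus strand). It had 184 and 174 CPM in NF2 KO runs 1 and 2, against 261 and 253 CPM in Control runs 1 and 2, a ratio of 0.690 (0.669 to 0.711). Its runs agreed more closely within each library than the libraries did.

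Mmp2, the gelatinase that Mmp14 activates, was sparse, with 248 UMIs in NF2 KO and 49 UMIs in Control cells, and stayed below the floor (ENSMUSG00000031740.8, chromosome 8, 92827291 to 92853420, plus strand). It had 6.79 and 3.42 CPM in NF2 KO runs 1 and 2, against 1.74 and 1.56 CPM in Control runs 1 and 2. Both NF2 KO runs were above both Control runs, at a ratio of 2.80 (2.06 to 3.89). These UMIs came from few cells: the 10 cells with the most held 31.1% of them in the NF2 KO library and 69.4% in the Control library. The ratio of Mmp2 was 0.993 without cells holding a UMI of a pericyte, fibroblast or epithelial marker, and 5.03 without the venous-like cells described below. As a mean of each cell's own CPM, which changes the weights of the cells and not the cells included, it was 1.06. Its ratio was not stable to the choice or the weighting of cells, and the setting by markers can also leave out endothelial cells, as for Timp2.

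Adam15, a membrane protease with a disintegrin domain, was slightly lower (ENSMUSG00000028041.17, chromosome 3, 89338542 to 89349996, minus strand). It had 95.3 and 98.6 CPM in NF2 KO runs 1 and 2, against 106 and 124 CPM in Control runs 1 and 2, a ratio of 0.845 (0.809 to 0.883). The difference between the Control runs, 1.17-fold, was close to the 1.18-fold difference between the libraries.

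Of the ADAMTS proteases, Adamts1, which cuts aggrecan and versican and is known to restrain vessel growth, differed most (ENSMUSG00000022893.14, chromosome 16, 85793827 to 85803113, minus strand). It had 156 and 175 CPM in NF2 KO runs 1 and 2, against 293 and 275 CPM in Control runs 1 and 2. The level was 1.68-fold lower in NF2 KO cells (1.63 to 1.74), and runs of a library differed by at most 1.12-fold. With the same cluster weights in both libraries the ratio was 0.749, and without the 4 clusters that held nearly only cells of 1 library it was 0.817, both short of the limit.

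Adamts4 and Adamts9, both proteoglycan-cutting enzymes, were lower by less. Adamts4 (ENSMUSG00000006403.13, chromosome 1, 171250421 to 171260637, plus strand) had 141 and 156 CPM in NF2 KO runs 1 and 2, against 209 and 176 CPM in Control runs 1 and 2, a ratio of 0.784 (0.757 to 0.811). Adamts9 (ENSMUSG00000030022.14, chromosome 6, 92772699 to 92943492, minus strand) had 142 and 137 CPM in NF2 KO runs 1 and 2, against 170 and 180 CPM in Control runs 1 and 2, a ratio of 0.793 (0.766 to 0.822). The libraries did not overlap for either gene. The sources used here do not state whether counting used the strand, so reads of overlapping genes could have been mixed, and the level of Adamts4 is uncertain for this reason. The genes that overlap Timp1, Timp2, Timp3, Adam15 and Adamts9 were each at 6.58 CPM or less in both libraries.

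The cells fell into clusters, formed without the 9 genes and without their pathway genes, and named from marker genes. A sum of UMIs was used where a library had at least 50 cells in a cluster, which gave 9 sums in the NF2 KO and 7 in the Control library. Both libraries had such sums for 5 states: hypoxia-like, mitotic-like, cycling, interferon-like led by Cxcl9 and Cd74, and capillary-like led by Ednrb and Ramp3. Clusters led by Cldn4 and F2rl1 (946 cells) and by Cd36 and Lpl (285 cells), a venous-like cluster (160 cells) and an interferon-like cluster led by Ifit genes (71 cells) had a sum in the NF2 KO library. Clusters led by Gal and Kcnj8 (612 cells) and an arterial-like cluster (130 cells) had a sum in the Control library. Where a cluster came nearly whole from 1 library, library and cell state cannot be told apart. Of the 8 genes above the floor, 7 had a highest state at least 3-fold above the lowest. The same span was not computed for all genes, so this count has no background.

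**Figure D2:**
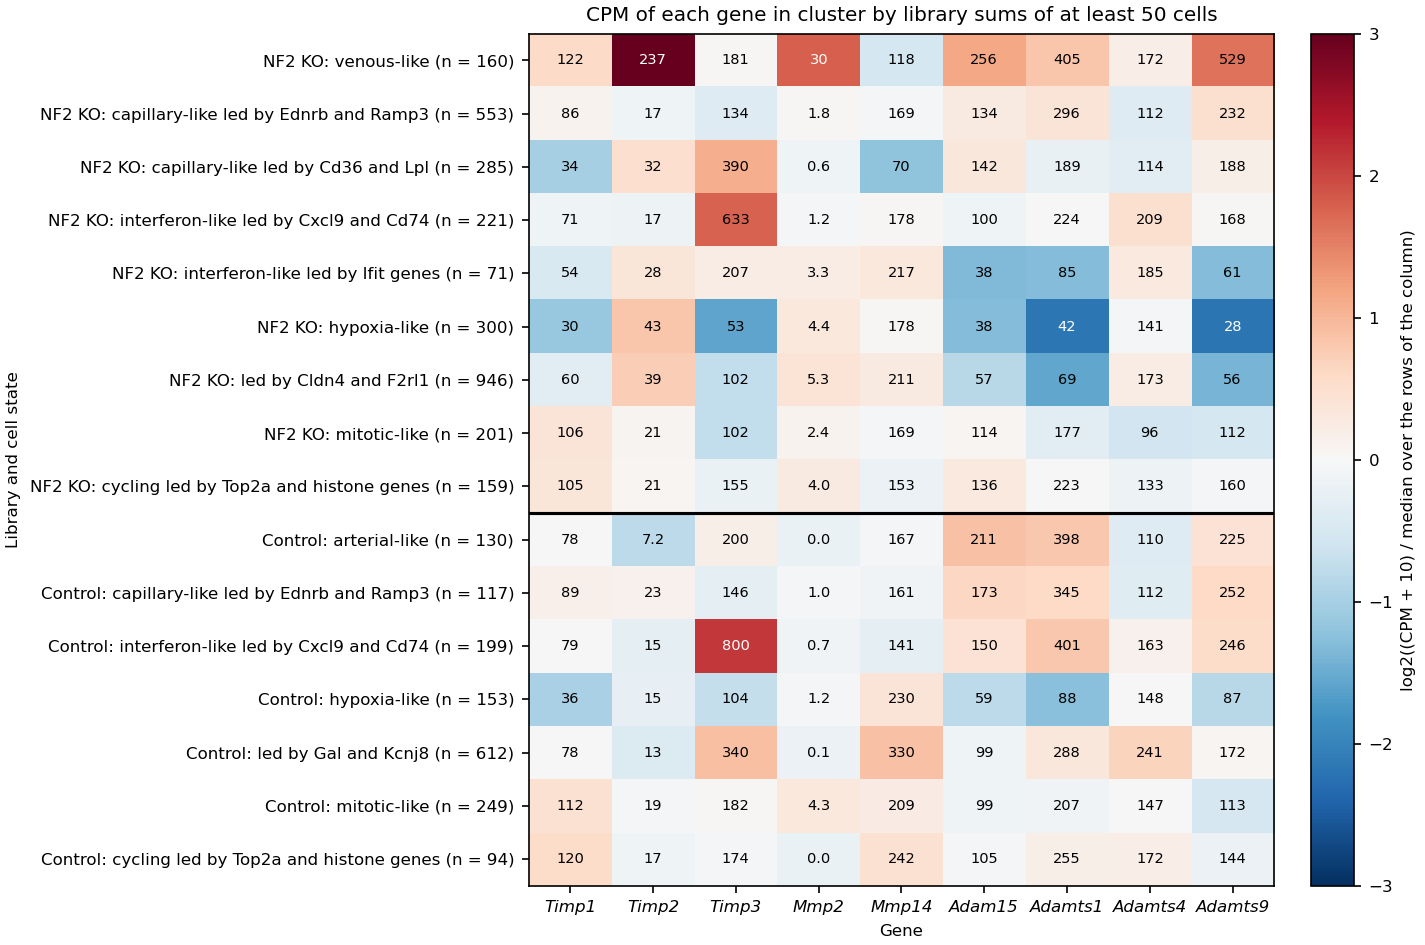
CPM of each gene (numbers) in 16 sums of at least 50 cells, with NF2 KO states above the line and Control states below it; colour gives the log2 difference of CPM + 10 from the median of that gene over the 16 sums. Timp2 reaches 237 CPM in NF2 KO venous-like cells, Timp3 is highest in the interferon-like states led by Cxcl9 and Cd74, and Adam15, Adamts1 and Adamts9 are low in NF2 KO hypoxia-like cells.

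The venous-like cluster, led by Ackr1 and Selp of post-capillary venules, held the highest levels of Timp2, Mmp2, Adam15 and Adamts9. Timp2 was at 237 CPM (218 to 257) in the 160 NF2 KO venous-like cells, with 240 CPM in run 1 and 236 CPM in run 2. The next level, in NF2 KO hypoxia-like cells, was 43.4 CPM (37.9 to 49.4), and its interval overlapped that of the cluster led by Cldn4 and F2rl1 (39.5, 36.6 to 42.4). Venous-like cells were 5.49% of the NF2 KO cells and held 26.9% of that library's Timp2 UMIs. The lowest level of Timp2 was in Control arterial-like cells, at 7.24 CPM (3.62 to 12.96), so the states spanned 32.7-fold (18.1 to 65.9). With coarser clusters, where venous-like cells were part of a larger cluster, the span was 3.91-fold. The Control library had 40 venous-like cells, which is under the limit of 50, and a lower limit of 30 that admits them was added after the data were seen. Their Timp2 level was 202 CPM, from 112 UMIs, with 365 CPM (256 to 506) in run 1 and 167 CPM (132 to 209) in run 2, which did not overlap. They held 20.7% of the Timp2 UMIs in 2.37% of the Control cells. Against the other retained cells of its own library, venous-like Timp2 was 8.02-fold higher in NF2 KO (7.27 to 8.85) and 13.8-fold higher in Control (11.1 to 17.1). Outside the venous-like cluster Timp2 was at 29.5 CPM in NF2 KO and 14.6 CPM in Control cells. These cells include the NF2 KO cluster led by Cldn4 and F2rl1 (39.5 CPM) and the Control cluster led by Gal and Kcnj8 (12.6 CPM). Library and cell state cannot be told apart in those 2 clusters.

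Mmp2 lay in the same cells. Venous-like cells had 30.1 CPM (23.5 to 38.0) of Mmp2 in the NF2 KO library and held 28.6% of its UMIs, and the 40 Control venous-like cells had 52.3 CPM and held 59.2%, which was 29 UMIs. The Control level rested on 17 cells of run 1 at 183 CPM and 23 cells of run 2 at 24.2 CPM. Elsewhere Mmp2 was at 3.44 CPM in NF2 KO and 0.684 CPM in Control cells, and no other sum exceeded 5.30 CPM. Control arterial-like and Control cycling cells had 0 UMIs. Pericytes and fibroblasts also make Mmp2 and Timp2. The 10 pericyte and smooth muscle markers summed to 159 CPM in NF2 KO and 36.1 CPM in Control venous-like cells, and the 10 fibroblast markers to 67.1 and 28.9 CPM. The 8 neutrophil markers had a larger sum, at 305 CPM in NF2 KO and 605 CPM in Control venous-like cells, against 83.7 and 104 CPM over the whole libraries. The defining pericyte genes Pdgfrb and Rgs5 stood at 1.70 and 20.8 CPM in NF2 KO venous-like cells, and at 1.81 CPM each in Control venous-like cells. Over the whole libraries these lists summed to 48.1 CPM in NF2 KO and 67.7 CPM in Control cells for pericytes, and to 18.6 and 21.6 CPM for fibroblasts. Abcc9, also a top gene of the cluster led by Gal and Kcnj8, made up 51.1 of those 67.7 CPM. The part of these cell types in the Timp2 and Mmp2 levels was not tested.

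The proteases Adamts9, Adam15 and Adamts1 were also high in venous-like cells. Adamts9 reached 529 CPM (500 to 560) in NF2 KO venous-like cells, 4.37-fold above the other NF2 KO cells (4.11 to 4.65), and 341 CPM in Control venous-like cells, 1.98-fold above the other Control cells. Its next states, Control capillary-like cells led by Ednrb and Ramp3 (252 CPM, 230 to 275), Control interferon-like cells led by Cxcl9 and Cd74 (246, 228 to 265) and NF2 KO capillary-like cells led by Ednrb and Ramp3 (232, 222 to 241), were not separated by their intervals. Adam15 was at 256 CPM in NF2 KO and 260 CPM in Control venous-like cells. Adamts1 was at 405 CPM in NF2 KO venous-like cells (380 to 432), which was not separated from Control interferon-like cells led by Cxcl9 and Cd74 (401, 378 to 425) or Control arterial-like cells (398, 367 to 431). Mmp14 went the other way, at 118 CPM in NF2 KO and 134 CPM in Control venous-like cells, against 180 and 259 CPM in the other cells of each library. Timp3 was at 181 CPM in both venous-like and other NF2 KO cells, but the venous-like runs were far apart, at 87.3 CPM in run 1 and 217 CPM in run 2, with intervals that did not overlap. It was lower in venous-like than in other Control cells, at 99.3 and 323 CPM.

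**Figure D3:**
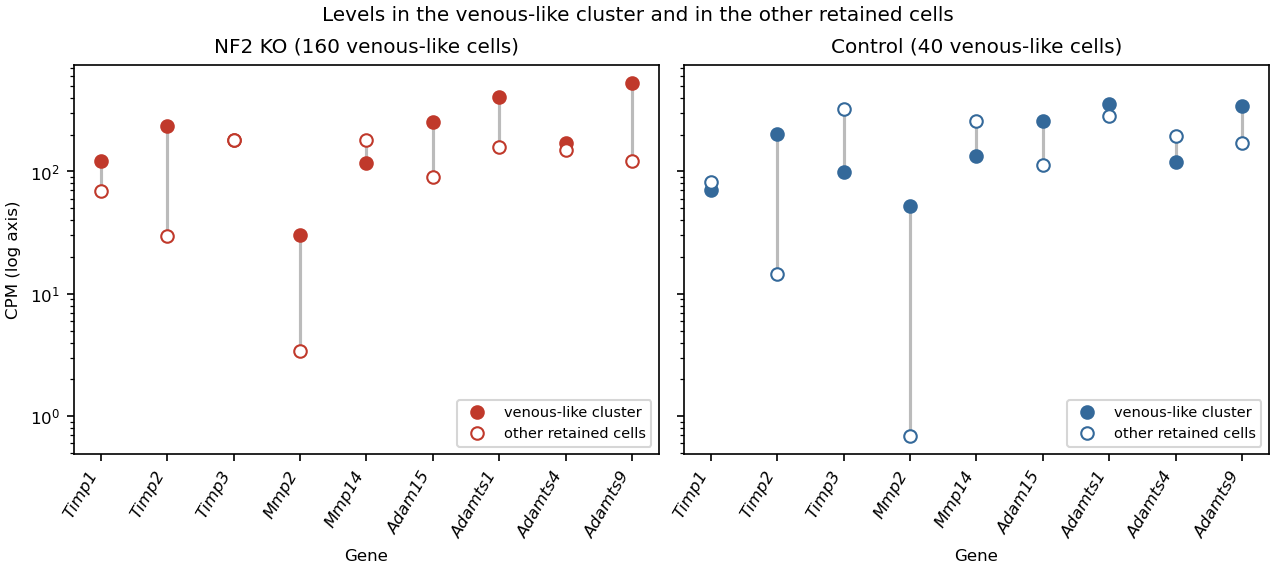
CPM (log axis) of each gene in the venous-like cluster (filled points) and in the other retained cells (open points) of the NF2 KO library (left, 160 venous-like cells) and the Control library (right, 40 venous-like cells). Timp2 and Mmp2 show the longest lines in both libraries, and Mmp14 is lower in the venous-like cluster in both.

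Timp3 was highest in the interferon-like state led by Cxcl9 and Cd74, cells with high chemokine and antigen-presentation genes. It was at 633 CPM (611 to 656) in NF2 KO cells of that state, with 548 and 655 CPM in runs 1 and 2. In Control cells of that state it was at 800 CPM (768 to 834), with 979 and 658 CPM in runs 1 and 2. These cells were 7.58% of the NF2 KO cells with 31.7% of the Timp3 UMIs, and 11.8% of the Control cells with 23.8%. The other interferon-like state, led by Ifit genes, had 207 CPM (182 to 235) in 71 NF2 KO cells. The 44 Control cells of that state, under the limit of 50 and above the added limit of 30, had 620 CPM (560 to 684), so the Ifit-led cells of the libraries did not have a common level. Among the 16 sums, NF2 KO capillary-like cells led by Cd36 and Lpl came after the Cxcl9-led states, at 390 CPM (369 to 413), and Control cells led by Gal and Kcnj8 followed at 340 CPM (330 to 350) and held 51.0% of the Control Timp3 UMIs. The lowest level was 52.7 CPM (46.7 to 59.4) in NF2 KO hypoxia-like cells, 15.2-fold below the highest (13.4 to 17.3). In NF2 KO cells led by Cd36 and Lpl, the pericyte and smooth muscle markers summed to 221 CPM, against 48.1 CPM over that library. The neutrophil markers summed to 290 CPM in the same cells, against 83.7 CPM over the NF2 KO library. The part of these cell types in the Timp3 level was not tested.

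Mmp14 and Adamts4 were highest in the Control cells led by Gal and Kcnj8, with Mmp14 at 330 CPM (321 to 340) and Adamts4 at 241 CPM (233 to 249). That cluster held 61.4% of the Control Mmp14 UMIs and 60.05% of the Control Adamts4 UMIs in 36.3% of the cells. Mmp14 was lowest in NF2 KO capillary-like cells led by Cd36 and Lpl, at 69.9 CPM (61.1 to 79.6), and the next lowest was NF2 KO venous-like at 118 CPM (105 to 133). Adamts4 varied least of the 8 genes, between 95.7 CPM (86.1 to 106) in NF2 KO mitotic-like cells and its highest, a 2.52-fold span (2.26 to 2.82). Its lower states, arterial-like and both capillary-like ones, stood between 110 and 114 CPM and were not separated.

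Timp1 was high in dividing cells. It stood at 106 CPM in NF2 KO mitotic-like and 105 CPM in NF2 KO cycling cells, and at 112 and 120 CPM in the same Control states. NF2 KO venous-like cells, at 122 CPM (109 to 137), were not separated from these Control states, and their runs differed widely, with 207 CPM in run 1 and 90.4 CPM in run 2. Timp1 was lowest in hypoxia-like cells, at 30.2 CPM (25.7 to 35.3) in NF2 KO and 35.6 CPM (28.5 to 43.8) in Control, and in NF2 KO capillary-like cells led by Cd36 and Lpl at 34.3 CPM (28.2 to 41.3), and these were not separated.

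Adam15, Adamts1 and Adamts9 went up and down together over the 16 sums. On log2(CPM + 10), Pearson's r was 0.94 for Adamts1 with Adamts9, 0.94 for Adam15 with Adamts9 and 0.91 for Adam15 with Adamts1. Within the 9 NF2 KO sums r ran between 0.93 and 0.97 for these pairs, and within the 7 Control sums between 0.91 and 0.93. All 3 were high in NF2 KO venous-like cells, Control arterial-like cells and Control capillary-like cells led by Ednrb and Ramp3. They were low in the hypoxia-like cells of both libraries and in the Ifit-led and Cldn4-led cells of the NF2 KO library. The 44 Control Ifit-led cells were not low, with Adamts1 at 339 CPM, Adamts9 at 150 CPM and Adam15 at 110 CPM. In NF2 KO hypoxia-like cells Adamts1 was at 42.0 CPM (36.7 to 48.0), Adamts9 at 28.1 CPM (23.7 to 33.0) and Adam15 at 38.2 CPM (33.1 to 43.9). Mmp14 had r = -0.49 with Adam15 and -0.40 with Adamts9, and Mmp14 and Adamts4 had r = 0.51 with each other. The sums share libraries and runs, so these values describe the 16 points and carry no test.

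**Figure D4:**
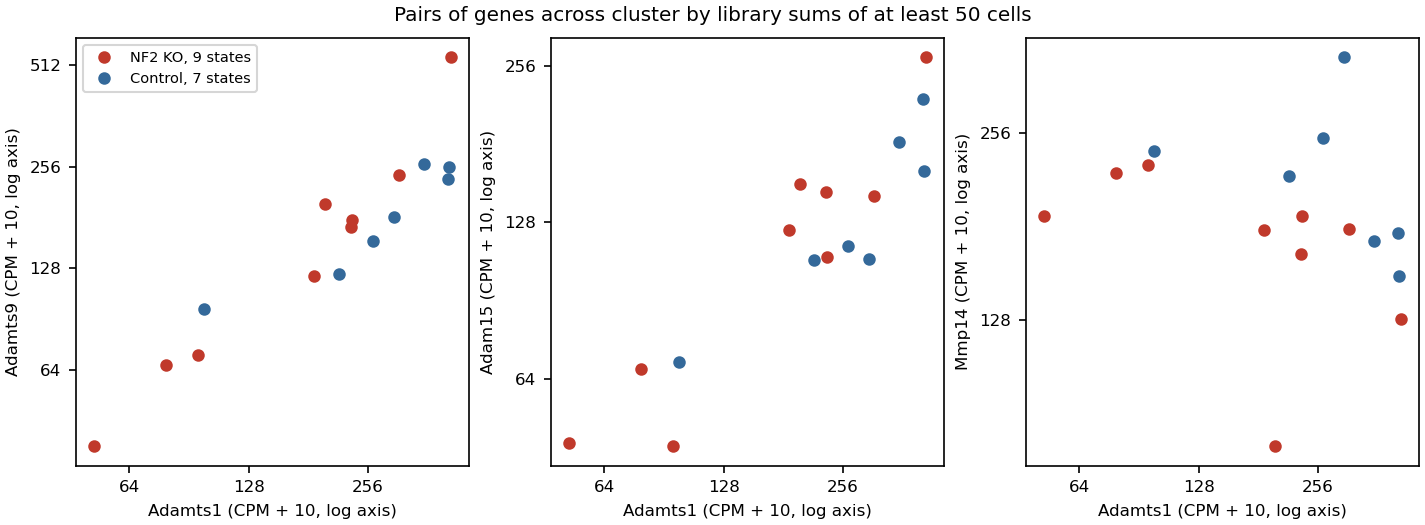
Levels of Adamts9 (left), Adam15 (middle) and Mmp14 (right) against Adamts1 across 16 sums of at least 50 cells, in CPM + 10 on log axes; red points are 9 NF2 KO states and blue points 7 Control states. Adamts9 and Adam15 follow Adamts1 in both libraries, with r of 0.94 and 0.91, and Mmp14 does not.

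The genes most like each of the 8 across these 16 sums were taken from all others with a mean of at least 20 CPM. Adamts1 was most like the water channel Aqp1 (r = 0.969), the junction protein gene Jam2 (0.958) and Caskin2 (0.953). Adamts9 was most like Jam2 (0.949), Aqp1 (0.946) and the kinase gene Jak1 (0.943), and Adam15 was most like the nuclear receptor gene Nr4a1 (0.966), Btbd3 (0.960) and Jam2 (0.957). Jam2 was among the 3 closest for each of the trio, whose levels already went together over the same sums. How high the closest values run for other genes was not computed. Timp3 was closest to Hoxd10 (0.899), the interferon-induced GTPase gene Gbp9 (0.878) and Rnf125 (0.873). Mmp14 was closest to Oaf (0.919) and Cpe (0.881), and Timp1 to Dhx29 (0.914), Sec11c (0.909) and Clic1 (0.902). Timp2 was closest to Tspan5 (0.880), which brings Adam10 to the cell surface, to Pam (0.866) and to Ppp1r14a (0.835). Adamts4 had the weakest likenesses, with B4galt3 (0.847), Sh2d5 (0.779) and Bmp2 (0.756).

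Within single states the library differences varied from state to state. Hypoxia-like cells had Timp2, Timp3 and Adamts1 past 1.5 in the same directions as the whole libraries, and capillary-like cells led by Ednrb and Ramp3 had none. In hypoxia-like cells, 5 of 8 genes passed 1.5 (300 NF2 KO and 153 Control cells), where 12.2% of all genes did. Timp2 was higher, at 43.4 CPM in NF2 KO and 14.95 CPM in Control hypoxia-like cells, a ratio of 2.90 (2.04 to 4.23). Adamts9 was lowest by ratio, at 28.1 CPM in NF2 KO and 87.3 CPM in Control hypoxia-like cells (0.322, 0.259 to 0.399). Adamts1 was at 42.0 CPM in NF2 KO and 88.5 CPM in Control cells of this state (0.475, 0.392 to 0.576). Timp3 was at 52.7 CPM in NF2 KO and 104 CPM in Control cells (0.506, 0.425 to 0.602), and Adam15 at 38.2 CPM in NF2 KO and 59.0 CPM in Control cells (0.648, 0.521 to 0.808). The runs of the libraries did not overlap for any of these 5 genes, which were picked for their ratios. The share of all genes without such overlap in this state was not computed. In the same cells the 16 endothelial markers summed to 5751 CPM in NF2 KO and 8918 CPM in Control, and the 8 epithelial markers to 74.9 and 23.8 CPM. Epcam was at 0 CPM in the hypoxia-like cells of both libraries. Cldn4, which also leads an NF2 KO endothelial cluster, made up 30.4 of the 33.6 CPM of the epithelial list over all NF2 KO cells. The part of these marker genes in the differences was not tested.

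In capillary-like cells led by Ednrb and Ramp3 (553 NF2 KO and 117 Control cells), 0 of 8 genes passed 1.5, where 4.73% of all genes did, and the ratios lay between 0.773 and 1.05. Adamts1 was at 296 CPM in NF2 KO and 345 CPM in Control cells of this state (ratio 0.858, 0.789 to 0.935), and Timp2 at 17.5 and 22.6 CPM (0.773, 0.553 to 1.10). The interval of Timp2 held 1, in contrast to its library ratio of 2.13.

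In interferon-like cells led by Cxcl9 and Cd74, 2 of the 7 genes above the floor there passed 1.5, where 9.38% of all genes did. Adamts1 was at 224 CPM in NF2 KO and 401 CPM in Control cells (ratio 0.558, 0.513 to 0.607), and Adam15 at 99.7 and 150 CPM (0.662, 0.580 to 0.756). Timp3 was at a ratio of 0.791 (0.749 to 0.836) in this state. In mitotic-like cells 2 of 8 passed, where 9.59% of all genes did: Timp3 at 102 CPM in NF2 KO and 182 CPM in Control (0.562, 0.488 to 0.647), and Adamts4 at 95.7 and 147 CPM (0.652, 0.560 to 0.758). The mitotic-like cells differed in depth, with medians of 16457 UMIs in NF2 KO and 2839 UMIs in Control, and in their 8 neutrophil markers, which summed to 62.3 and 348 CPM. In cycling cells 1 of 7 passed, where 9.52% did: Mmp14, at 153 CPM in NF2 KO and 242 CPM in Control (0.634, 0.569 to 0.706).

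Adamts1 was the only one of the 9 genes whose interval lay below 1 in each of the 5 states, with ratios between 0.475 and 0.874. These intervals cover counting error only, and how many of all genes do the same was not computed. Timp3 and Timp1 also had ratios below 1 in 5 of 5 states, with intervals below 1 in 3 states for Timp3 and in 0 for Timp1. Timp2 had 1 state with an interval above 1 and 4 whose interval held 1. When the 5 states were given the same weights in both libraries, 0 of the genes passed 1.5, with ratios of 1.30 for Timp2, 0.766 for Timp3, 0.749 for Adamts1 and 0.900 for Mmp14. That setting leaves out the cells of the states found in 1 library.

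**Figure D5:**
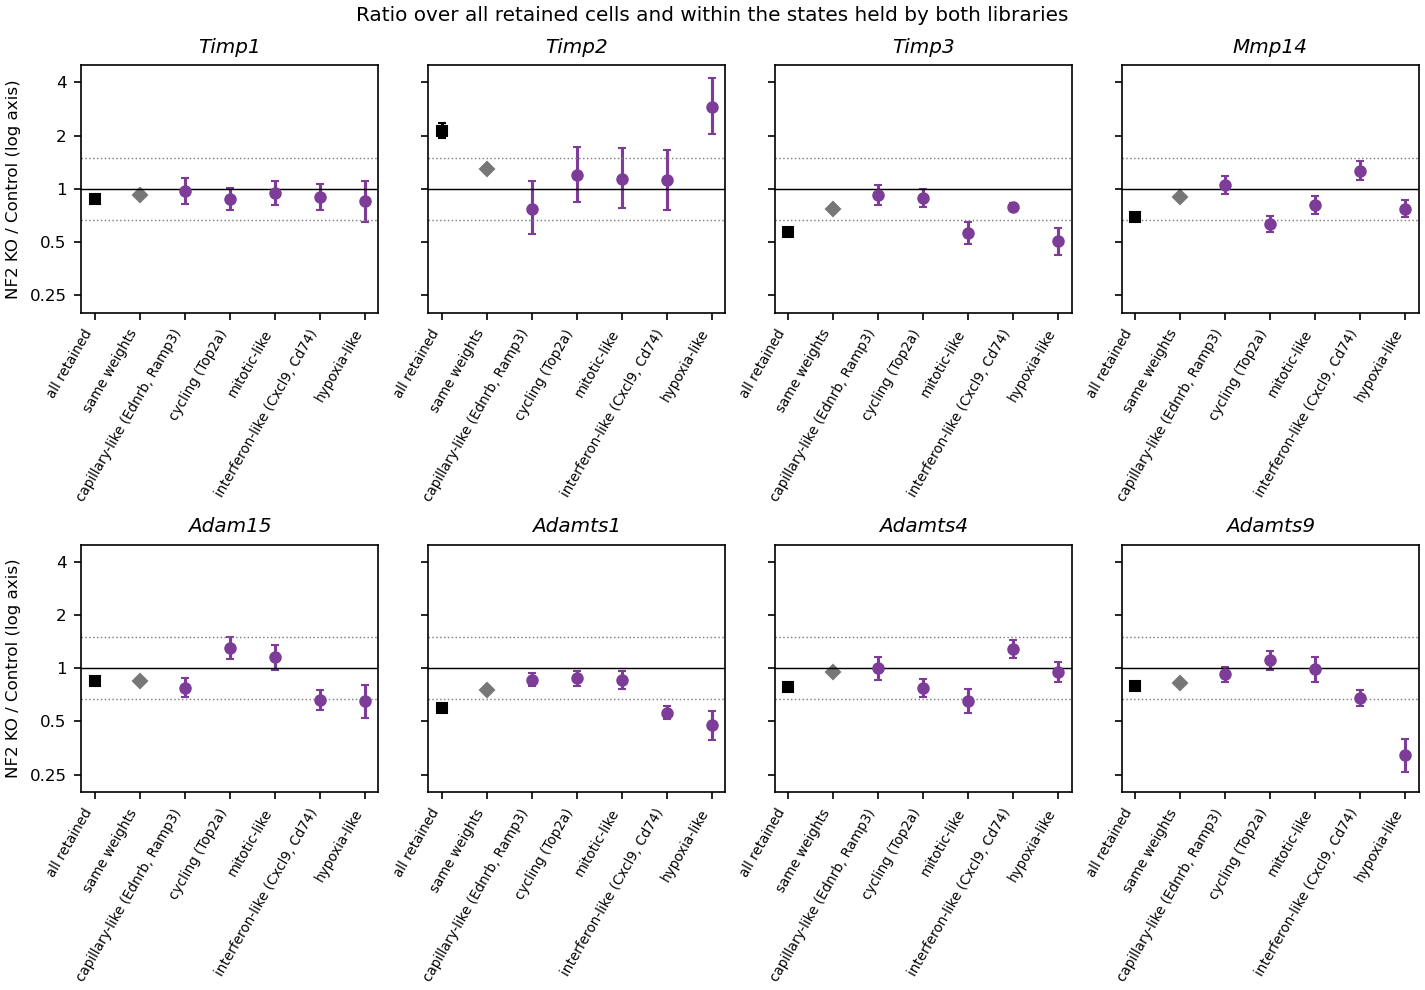
NF2 KO over Control ratio of CPM (log axis) for the 8 genes above 20 CPM, over all retained cells (square), with the same weights of 5 states in both libraries (grey diamond) and within each of the 5 states (circles), with exact 95% counting intervals where drawn; the solid line is 1 and the dotted lines mark a 1.5-fold difference. For Timp2 the hypoxia-like state, at 2.90, stands above the other 4 states, and Timp1, Timp3 and Adamts1 lie below 1 in all 5.

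The other genes of the pathway were taken from named lists. Of 18 other matrix metalloproteases in the files only Mmp15, a membrane-type relative of Mmp14, was above 20 CPM, and it was lower, at 35.4 CPM in NF2 KO and 66.3 CPM in Control cells (ratio 0.534, 0.501 to 0.568). Of 11 other ADAM proteases, 5 were above the floor, with 2 lower, 0 higher and 3 neither. Adam10, the shedding enzyme of Notch and cadherins and the most abundant of the list, was at 214 CPM in NF2 KO and 335 CPM in Control cells (0.638, 0.621 to 0.656), and Adam19 at 20.8 and 53.3 CPM (0.390, 0.361 to 0.421). Of 22 other ADAMTS genes only Adamts7 was above the floor, at a ratio of 0.691. Of 5 other inhibitors none reached it, and Tfpi2 was the most abundant. The shares to set beside these counts are again 2.83% higher and 5.26% lower over all genes.

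Of 24 genes for maturation, activation and trafficking of these proteases, 15 were above the floor, with 3 higher, 5 lower and 7 neither and a median log2 ratio of -0.15. Over all genes above the floor, 2.83% were higher and 5.26% lower, with a median of -0.03. The higher genes of this list included the syndecan gene Sdc4, at 72.3 CPM in NF2 KO and 33.1 CPM in Control cells (2.18, 2.04 to 2.34), and Tspan5, at 28.9 and 17.9 CPM (1.62, 1.47 to 1.79). Lower were both plasminogen activators, with Plat at 10.6 CPM in NF2 KO and 45.0 CPM in Control cells (0.234, 0.212 to 0.259) and Plau at 27.8 and 50.7 CPM (0.549, 0.511 to 0.590). Furin, the protease that matures Mmp14 and many ADAM and ADAMTS proforms, had a ratio of 0.621, Tspan14 0.548 and the integrin gene Itgb3 0.552. Cav1, the most abundant of the list, was at 1633 CPM in NF2 KO and 1262 CPM in Control cells (1.29) and did not pass 1.5.

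Of 20 matrix substrates in the files, 15 were above the floor, with 3 higher, 7 lower and 5 neither and a median log2 ratio of -0.57. The shares over all genes were again 2.83% higher and 5.26% lower, with a median of -0.03. The 3 higher genes code for the proteoglycan biglycan (Bgn, at 93.3 CPM in NF2 KO and 20.1 CPM in Control cells, ratio 4.65), fibronectin (Fn1, 2.16) and thrombospondin 1 (Thbs1, 2.79). The 7 lower ones include basement membrane genes, namely the collagens Col4a1 (0.653) and Col18a1 (0.666), the laminins Lamb1 (0.453) and Lamc1 (0.570) and the nidogen Nid2 (0.503). The others were tenascin C (Tnc, 0.322) and Sparc (0.574), the most abundant of the list at 4421 CPM in NF2 KO and 7698 CPM in Control cells.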

How the data were processed

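Single-cell RNA was measured in 1 NF2 KO and 1 Control library. The genome build mm10 and the tools Cell Ranger 3.0.0 and Seurat 3.1.1 are listed per the submitters' processing notes; their settings are not given in the sources used here. The authors deposited natural log values per gene and cell, each the natural log of 1 plus 10000 times the UMI count over the cell total, as tested on the values. Whole UMI counts were recovered from 100% of them within 0.01 UMI and took the place of the counts assumed in the design.

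Cells were kept from 500 genes and 1000 UMIs upward where mitochondrial UMIs were at most 10%. The automatic doublet threshold marked 0% of NF2 KO and 0.0778% of Control cells and had not worked, so the top 5% of scores were removed, 166 NF2 KO and 129 Control cells. Cells were clustered in scanpy 1.11.5 (Leiden resolution 0.8, 30 components, 2000 variable genes, 15 neighbours, no integration), with the 9 genes and all pathway genes left out of the variable genes. Left out were clusters that were shallow without an endothelial marker among their top 10 genes, with 230 NF2 KO and 756 Control cells in all. So were clusters with at least 2 more listed markers of another cell type than endothelial markers among those genes. A cluster of 14 Control cells led by Ccl3 and Cxcl3 did not meet this rule and was retained, with neutrophil markers at 3782 CPM.

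UMIs were summed per library, run or cluster as CPM, with exact Poisson intervals for levels and exact conditional intervals for ratios (SciPy 1.17.1), and no test was made. The ratio step was tested on simulated data. The share of cells with a UMI is not reported, because the leukocyte gate meant to give its background held too few cells. Named pathway genes are those of each list past 1.5-fold with a mean of at least 20 CPM and the most abundant of each list; for likeness, the 3 genes with the highest r. A few genes that this rule would name are not reported here. The genes and lists were chosen with earlier results of these data known. Gene positions are from GENCODE M21 (GRCm38). Alternatives were other filters, clusterings, weights, limits and runs left out.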

Additional observations from a re-analysis of the deposited data

Results flagged for a closer look

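For 3 genes the NF2 KO over Control ratio lay on opposite sides of 1 in different states, with counting intervals that excluded 1 on both sides. Mmp14 had a ratio of 1.27 (1.12 to 1.43) in interferon-like cells led by Cxcl9 and Cd74 and 0.634 in cycling cells. Adam15 had a ratio of 1.30 (1.13 to 1.497) in cycling cells and 0.648 in hypoxia-like cells. Adamts4 had a ratio of 1.28 (1.15 to 1.43) in interferon-like cells led by Cxcl9 and Cd74, where the runs of the libraries overlapped, and 0.652 in mitotic-like cells. With 1 library per group these differences between states were not tested, and how many of all genes show the same was not computed.

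Timp2 was also higher in the cells left out of the comparison. There it was at 32.5 CPM in NF2 KO cells, from 26 UMIs, and 16.7 CPM in Control cells, from 33 UMIs, a ratio of 1.95 (1.12 to 3.36). The left-out cells were shallow, with medians of 2103 UMIs in NF2 KO and 1786 UMIs in Control.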

How the results depend on the processing

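Of the 9 genes, 3 passed the 1.5-fold limit. With the same cluster weights in both libraries 0 passed, at a limit of 2-fold 1 passed, and at a looser planned limit 6 passed; over the other 17 of 20 settings 2 or 3 passed. Over all genes, 472 passed; with the same weights 306 did, at 2-fold 152, at the looser limit 1146 and with a floor of 5 CPM 862. Equal weights also leave out the states of 1 library; leaving out the 4 clusters of mainly 1 library without reweighting kept Timp2 (1.57) and Timp3 (0.649) past the limit. Directions held in all 17 refits for Timp1, Timp2, Timp3, Mmp14, Adam15, Adamts1 and Adamts4. The ratio of Timp2 ranged between 1.30 and 2.28, that of Timp3 between 0.383 (without NF2 KO run 2) and 0.766, and that of Adamts1 between 0.550 and 0.817. Adamts9 was at 1.04 without the 4 clusters of mainly 1 library, and Mmp2 ranged between 0.993 and 5.03. The cause of the shifts was not tested. The count of 7 genes with a 3-fold range over states was the same with coarser clusters and with a limit of 30 cells. The size of a span and the highest state were not always the same. With coarser clusters Timp2 was highest in NF2 KO cells led by Selp and Ackr1, at 49.1 CPM (45.76 to 52.65). That interval overlapped the one of NF2 KO cells led by Vegfa (43.8, 38.25 to 49.92). Timp3 was then highest in the NF2 KO cluster with Cd36 and Lpl among its top genes, at 474 CPM. The settings without a cluster, and that of 30 cells, were chosen after seeing the data. No paired analysis was possible because each group has 1 library. Depth limits Mmp2 and every value in the 40 Control venous-like cells.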
